A study of Mus musculus with 20 samples.

Results

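Keratin and cornified epidermis genes are the structural, junctional and barrier genes of stratified skin epithelium, and their transcripts were followed here in RNA from mouse knee joints. A gene was included if its symbol was Krt or Lce followed by a number, or if it was 1 of 29 named epidermal genes. Of the 14793 genes in the table, 44 were included, namely 16 keratins, 2 late cornified envelope genes and 26 of the named genes. Ivl, Flg and Grhl3 were among the names and were not analysed here.

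Keratins are the intermediate filament proteins of epithelial cells. In the epidermis, dividing basal keratinocytes make Krt5 and Krt14, cells that move upward switch to Krt1 and Krt10, and the outermost cells replace their membrane with a cornified envelope in which loricrin and other proteins are crosslinked by transglutaminases. Desmosomes hold these cells together, lipids fill the space between them, and simple epithelia use a different keratin set that includes Krt18 and Krt7. Cartilage, synovium and bone are not stratified epithelia.

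The joints came from male C57BL/6Nci mice that were 12 weeks old at the start of the study, all of which had surgical destabilization of the medial meniscus (DMM) of the right knee, a model of osteoarthritis. Injections into the joint followed at week 3 and week 5. The control group received needle insertion alone, the MSC group unactivated mouse adipose-derived mesenchymal stromal cells (MSC), the TLR3-MSC group the same cells activated with polyinosinic-polycytidylic acid (pIC), and the STING-MSC group cells activated with cGAMP. Each group held 5 joints from separate mice, the injected cells came from pooled donors, and no joint without DMM was analysed here. The study's methods list cartilage, synovium, capsule and subchondral bone as the tissue taken and name no skin, and its text gives 2 different collection times, so the interval after injection is not stated here.

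Values are the authors' median-ratio normalized read counts, and a difference between groups is given on the log2(normalized count + 1) scale. All 44 genes passed the minimum mean of 5 (their lowest was 10.5), 25 had reads in every joint and 19 were at 0 in at least 1 joint. Whole reads were recovered from the values, which gave between 27955496 and 52529972 reads per joint. The defining markers of the labelled tissue were present, with all 9 chondrocyte, all 8 osteoblast and osteocyte and all 8 synovial fibroblast markers in the table. Skeletal muscle markers were also abundant, with summed normalized counts from 836166 to 3406238 per joint over 9 genes. Of 18 keratinocyte markers outside the inclusion rule, 10 were in the table. Their summed count ranged from 1836 to 2963 in control, 1976 to 2571 in MSC, 1674 to 5150 in TLR3-MSC and 1499 to 2573 in STING-MSC joints.

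Many of the genes lie in genomic clusters, with coordinates here on GRCm39. Of the 44, 11 lie on chromosome 15 and 8 on chromosome 11. These chromosomes hold the type II and type I keratin clusters, and chromosome 11 also holds Alox12b, Aloxe3 and Evpl. A further 5 lie on chromosome 3, where loricrin, filaggrin family and late cornified envelope genes sit together, and 4 on chromosome 7. The table holds no gene that overlaps any of the 44. Several are members of families with close copies (Krt83 and Krt86, Lce1a1 and Lce1m, Krt14 and Krt17, Dsg1a), so reads could have been divided between copies, and whether counting used the strand is not given in the sources used here.

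To show what precedes these genes in the genome, the 250 bases upstream of the annotated start were read from the reference (GRCm39) for 5 of them: a basal keratin (Krt5), a suprabasal keratin (Krt10), 2 cornified envelope genes (Lor and Krtdap) and, for contrast, a simple epithelial keratin (Krt18). Each is written 5′ to 3′ on the strand of its gene. Capitals mark a match to TATAAA, to TGANTCA (the AP-1 element) or to GCCNNNGGC (the AP-2 element).
Krt5 at chr15:101621347-101621596, minus strand, without a match
Krt5: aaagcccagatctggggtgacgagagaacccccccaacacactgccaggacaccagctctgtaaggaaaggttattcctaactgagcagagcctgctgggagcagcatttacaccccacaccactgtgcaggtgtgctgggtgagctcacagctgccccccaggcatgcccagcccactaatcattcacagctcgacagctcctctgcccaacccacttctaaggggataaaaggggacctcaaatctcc
Krt10 at chr11:99280196-99280445, minus strand, with TATAAA
Krt10: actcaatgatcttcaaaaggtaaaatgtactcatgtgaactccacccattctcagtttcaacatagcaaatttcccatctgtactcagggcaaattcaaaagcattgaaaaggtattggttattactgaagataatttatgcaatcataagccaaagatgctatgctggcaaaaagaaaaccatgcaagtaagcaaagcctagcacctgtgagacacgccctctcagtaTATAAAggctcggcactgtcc
Lor at chr3:91990450-91990699, minus strand, with TGANTCA and TATAAA
Lor: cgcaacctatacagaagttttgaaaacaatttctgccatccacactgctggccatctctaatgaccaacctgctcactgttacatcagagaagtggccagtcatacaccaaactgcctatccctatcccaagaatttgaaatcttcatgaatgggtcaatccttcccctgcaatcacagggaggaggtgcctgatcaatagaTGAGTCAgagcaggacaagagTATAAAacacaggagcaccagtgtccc
Krtdap at chr7:30487077-30487326, plus strand, with TGANTCA and TATAAA
Krtdap: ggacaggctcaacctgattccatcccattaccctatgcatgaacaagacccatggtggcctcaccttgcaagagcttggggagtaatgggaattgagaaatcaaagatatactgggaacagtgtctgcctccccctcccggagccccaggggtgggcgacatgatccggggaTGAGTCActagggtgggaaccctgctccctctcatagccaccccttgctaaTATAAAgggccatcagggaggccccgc
Krt18 at chr15:101936365-101936614, plus strand, with GCCNNNGGC
Krt18: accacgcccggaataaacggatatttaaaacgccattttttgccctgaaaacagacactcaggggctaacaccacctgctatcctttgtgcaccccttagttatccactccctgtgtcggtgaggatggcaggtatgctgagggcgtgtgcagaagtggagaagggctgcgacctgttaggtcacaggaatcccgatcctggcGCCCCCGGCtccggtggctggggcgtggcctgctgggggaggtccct

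Searched on both strands, TGANTCA was found in this window for 10 of the 44 genes (22.7%) and for 4.9% of 14770 genes with a start site. TATAAA was found for 8 of the 44 (18.2%) and 7.98% of all genes. GCCNNNGGC was found for 9 of the 44 (20.5%) and 15.6% of all genes, and AACCGGTT, the grainyhead element, for 0 of the 44 and 0.122% of all genes. TGANTCA matched upstream of Krt14, Krt15, Krt17, Lor, Flg2, Krtdap, Dmkn, Sbsn, Serpinb5 and Aloxe3, a set that holds genes of the basal layer as well as the cornified envelope. A match is a run of letters, and binding was not measured.

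Most of the 44 genes varied widely between joints of the same group. The SD between joints around their group means, on the log2 scale, was at least 1 for 28 of the 44 genes, against 4.23% of all 14793 genes, and its median was 1.44 against 0.26 for all genes. Because SD on this scale varies with level, it was also divided by the SD of the limma mean trend for each gene. That ratio was at least 2 for 21 of the 44 genes and for 2481 of all 14793, with medians of 1.90 and 1.13. The SD was highest for Krt77 (3.99), Krt14 (3.48) and Krt1 (3.36), and lowest for Krt80 (0.25), Krt222 (0.35), Sfn, Krt18 and Krt7. The 5 genes with the lowest SD included both simple epithelial keratins. By the ratio to the trend the highest were Krt10 (6.11), Lor (5.22) and Sbsn (4.85). The lowest ratios were those of Krt7 (0.66), Krt222 (0.70) and Krt18 (0.79), while Krt80 (1.18) and Sfn (1.64) were above the all-gene median. In 36 of the 44 genes TLR3-MSC replicate 4 was the highest of the 20 joints, against 2.35% of all genes. In 28 of them control replicate 1 was also the second highest, against 0.561% of all genes, and 16 had the same 5 highest joints (TLR3-MSC replicates 4 and 3, control replicates 1 and 4, MSC replicate 1), against 0.189%. Without TLR3-MSC replicate 4 and control replicate 1, Abca12, Dsc1, Dsc3, Krt17, Krt78, Lce1a1 and Serpinb5 did not keep a mean of 5. Their place in the table rests on the joints that lead, so the counts above are partly set by which genes entered it. The 28 genes were picked for that order after the values were seen, so their levels are described below without a test.

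**Figure D1:**
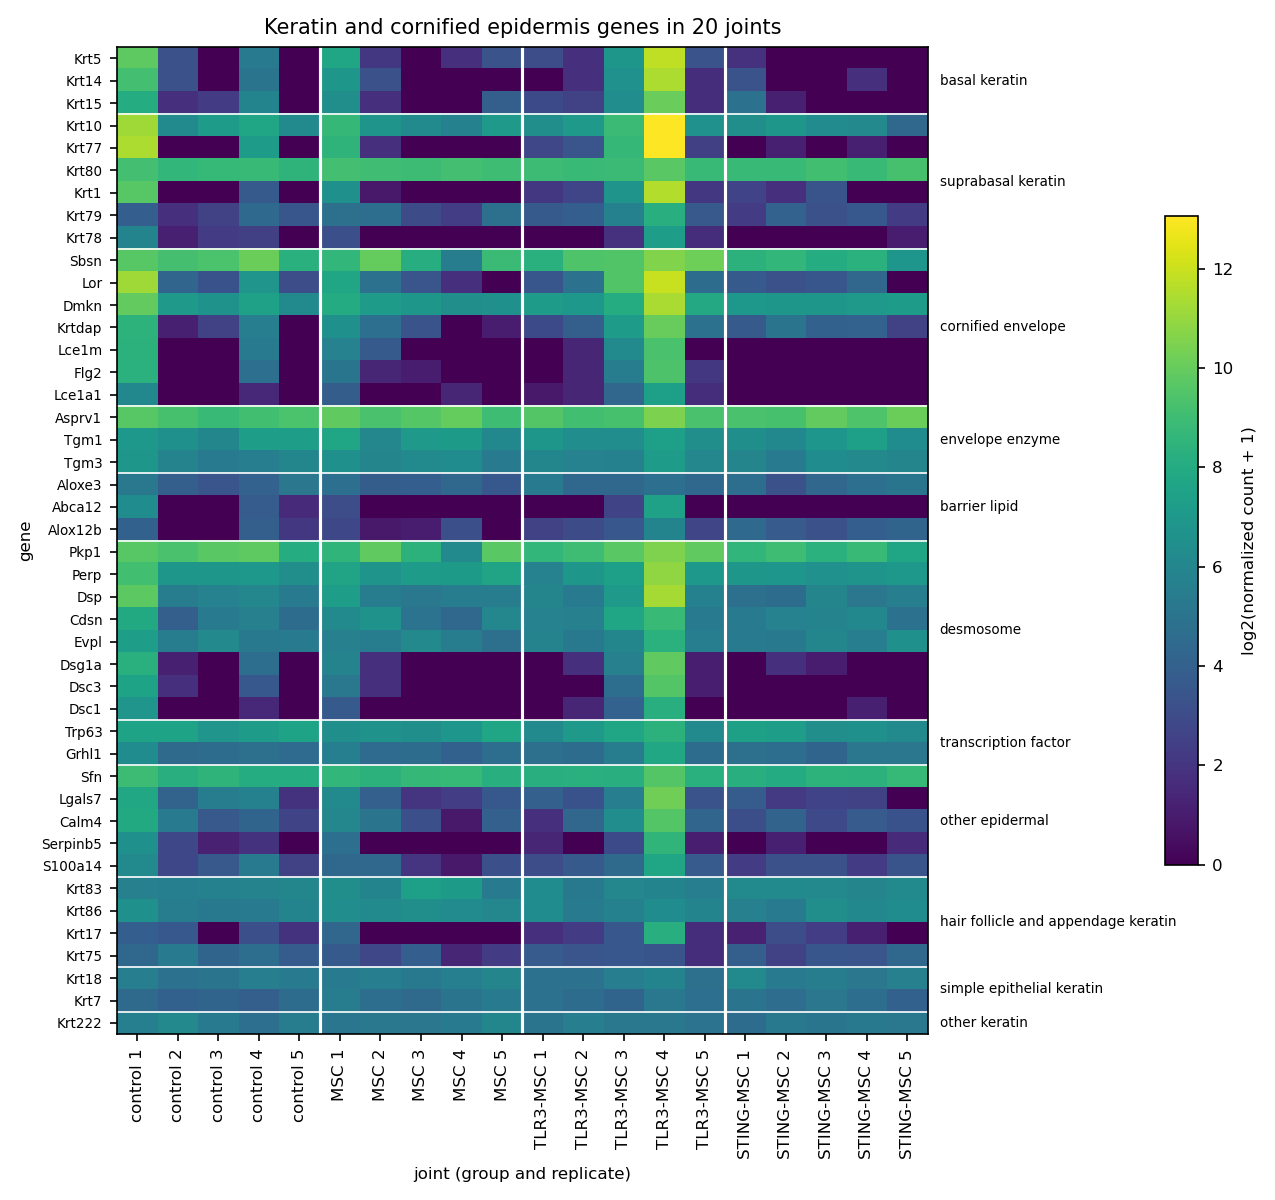
Each row is 1 of the 44 genes, grouped by role, each column 1 joint, and colour gives log2(normalized count + 1). The columns of TLR3-MSC replicate 4 and control replicate 1 are bright across the basal, suprabasal, envelope and desmosome rows, while Krt80, Krt18, Krt7 and Krt222 are nearly even across joints.

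Basal keratins were close to the detection limit in most joints. Krt5, the type II keratin of basal keratinocytes (chromosome 15, 101615505 to 101621334), had normalized counts of 889, 8.46, 0, 40.2 and 0 in control replicates 1 to 5. They were 204, 3.37, 0, 2.47 and 9.16 in MSC, 7.59, 2.43, 119, 3587 and 9.04 in TLR3-MSC, and 2.62, 0, 0, 0 and 0 in STING-MSC joints. Every group except STING-MSC thus held 1 or 2 joints far above the rest. Its type I partner Krt14 (chromosome 11, 100093988 to 100098375) had counts of 573, 8.46, 0, 31.97 and 0 in control and 119, 8.42, 0, 0 and 0 in MSC joints. It had 0, 2.43, 96.5, 2799 and 2.26 in TLR3-MSC and 9.18, 0, 0, 2.50 and 0 in STING-MSC joints. The same joints were high for both partners. Krt15, a basal keratin also made by follicle stem cells, had 1074 in TLR3-MSC replicate 4, 269 in control replicate 1 and between 57.5 and 86.5 in the other joints of the 5, while the remaining 15 joints had 0 to 28.8. The upper end of that last range was STING-MSC replicate 1, the highest STING-MSC joint for Krt5 and Krt14 as well.

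The suprabasal keratins Krt1, Krt10 and Krt77 were high in the same joints. Krt10, the type I keratin of differentiating cells (chromosome 11, 99276080 to 99280191), had 2342, 76.1, 142, 204 and 73.5 in control and 418, 109, 72.6, 52.7 and 128 in MSC joints. It had 87.7, 128, 481, 8497 and 97.2 in TLR3-MSC and 85.2, 119.9, 77.2, 70.0 and 19.2 in STING-MSC joints. Unlike the basal keratins, Krt10 was above 0 in every joint. Krt77 (chromosome 15, 101767166 to 101778141), a keratin of suprabasal cells and sweat ducts, had 2832, 0, 0, 143 and 0 in control and 359, 2.53, 0, 0 and 0 in MSC joints. It had 5.90, 9.70, 419.6, 8214 and 4.52 in TLR3-MSC and 0, 1.22, 0, 1.25 and 0 in STING-MSC joints. Krt77 therefore spanned from 0 to 2832 within the control group. Krt1, the type II partner of Krt10, had 3043 in TLR3-MSC replicate 4, 812 in control replicate 1 and at most 9.39 in the 15 joints outside the 5. Per kilobase of exon, TLR3-MSC replicate 4 held 3995 normalized counts of Krt10, 2706 of Krt77, 1623 of Krt5, 1493 of Krt14 and 689 of Krt1.

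Krt79 and Krt80 did not share this order. Krt79, a keratin of the follicle opening and sebaceous duct, was highest in TLR3-MSC replicate 4 (303) and TLR3-MSC replicate 3 (52.3), and control replicate 1 had 13.8. Krt80, a keratin found in many epithelia, lay between 363 and 611 in 19 joints and at 852 in TLR3-MSC replicate 4. Krt78 had 158 in that joint, 58.2 in control replicate 1 and 0 to 8.04 elsewhere.

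Cornified envelope genes followed the keratins. Lor, which encodes loricrin, the main envelope protein (chromosome 3, 91987578 to 91990450), had 2379.7, 18.1, 8.80, 111 and 7.48 in control and 200.4, 29.5, 9.95, 2.47 and 0 in MSC joints. It had 10.1, 29.1, 716, 4041 and 23.7 in TLR3-MSC and 11.8, 8.56, 10.4, 18.7 and 0 in STING-MSC joints. TLR3-MSC replicate 3 stood out more for Lor than for the basal keratins. Krtdap, a secreted keratinocyte differentiation protein (chromosome 7, 30487321 to 30490523), had 345, 1.21, 5.03, 46.6 and 0 in control and 92.5, 26.1, 8.95, 0 and 1.02 in MSC joints. It had 6.74, 14.6, 141, 1046 and 29.4 in TLR3-MSC and 11.8, 31.8, 15.6, 16.2 and 4.80 in STING-MSC joints. For Krtdap all 5 STING-MSC joints had reads. Flg2, a filaggrin-like protein of the granular layer (chromosome 3, 93104585 to 93128699), and the late cornified envelope genes Lce1a1 and Lce1m had 0 reads in all 5 STING-MSC joints. Flg2 had 679 in TLR3-MSC replicate 4, 319.7 in control replicate 1, 44.2 in TLR3-MSC replicate 3, 32.2 in MSC replicate 1, 26.5 in control replicate 4 and 0 to 3.39 in the others.

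Sbsn, which encodes suprabasin (chromosome 7, 30450896 to 30455560), was the exception in this class. It had 817, 586, 665, 1121 and 309.6 in control and 395, 991, 279, 43.7 and 472 in MSC joints. It had 314, 714, 723, 1529 and 1142 in TLR3-MSC and 333, 402, 268, 326 and 117 in STING-MSC joints. Sbsn was well above 0 everywhere and was spread over joints that held almost no Krt5 or Lor. Dmkn, which encodes dermokine and lies beside Sbsn and Krtdap, was intermediate, with 2649 in TLR3-MSC replicate 4, 979 in control replicate 1 and 74.8 to 235 in the 15 joints outside the 5. The transglutaminases that crosslink the envelope had SDs of 0.56 (Tgm1) and 0.50 (Tgm3), and Tgm3 is among the 28 genes. Tgm1 lay between 61.6 and 211 over all 20 joints, with its highest value in MSC replicate 1, and Tgm3 between 41.6 and 148. Asprv1, the protease that processes profilaggrin, had 462 to 1450.0, a level of 282 per kilobase in the median joint, against 1.36 for Krt5.

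Desmosome genes split in the same way. Dsp, which encodes desmoplakin, the plaque protein that anchors keratin filaments (chromosome 13, 38335270 to 38382554), had 868, 44.7, 54.0, 65.8 and 38.8 in control and 153, 44.6, 36.8, 43.7 and 45.8 in MSC joints. It had 60.7, 40.4, 129, 2549 and 52.0 in TLR3-MSC and 27.5, 23.2, 60.5, 35.0 and 47.0 in STING-MSC joints. Dsp had reads in every joint and a high level in the same joints as the keratins. The desmosomal cadherin genes Dsc1, Dsc3 and Dsg1a had 302, 753 and 929 in TLR3-MSC replicate 4 and at most 2.53 in the 15 joints outside the 5. Perp, a tetraspan desmosome protein, had 1869 there and 54.8 to 195 in those 15. Pkp1, which encodes plakophilin 1 (chromosome 1, 135799133 to 135846946), did not share the order. It had 806, 643, 842, 904 and 267 in control and 367, 920.2, 334, 71.7 and 852 in MSC joints. It had 398, 502, 828, 1481 and 923 in TLR3-MSC and 391, 510.1, 326, 459.8 and 201 in STING-MSC joints. Its lowest joint, MSC replicate 4, was also the lowest for Sbsn.

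Among the barrier lipid genes, Abca12, the lipid transporter of lamellar granules, had 174 in TLR3-MSC replicate 4, 80.5 in control replicate 1 and at most 2.04 in the 15 joints outside the 5. The neighbouring lipoxygenase genes Alox12b and Aloxe3 did not share the order, and Aloxe3 ranged only from 8.56 to 39.6. Of the transcription factors, Grhl1 had 218 and 79.4 in the 2 leading joints and 15.7 to 35.0 in those 15, whereas Trp63, the p63 gene of basal keratinocytes, lay between 72.3 and 330.4 in all joints. The highest Trp63 value was also in TLR3-MSC replicate 4. The remaining epidermal genes all shared the order. Lgals7 (galectin 7), Calm4, Serpinb5 (maspin) and S100a14 had 1200.4, 765, 369.8 and 207 in TLR3-MSC replicate 4. Sfn, the 14-3-3 sigma gene, had 742 there and 262 to 493 elsewhere.

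Keratins that mark other epithelia or appendages did not share it. None of the 4 follicle and appendage keratins and neither simple epithelial keratin had both leading joints in that order. Krt18 (chromosome 15, 101936615 to 101940463) had 47.6, 29.0, 31.4, 46.6 and 40.8 in control and 40.2, 46.3, 37.8, 48.6 and 61.1 in MSC joints. It had 28.7, 28.3, 46.9, 59.0 and 27.1 in TLR3-MSC and 76.1, 40.4, 44.8, 35.0 and 50.8 in STING-MSC joints. The 4 groups overlapped for Krt18, and its highest joint was STING-MSC replicate 1. Krt7 ranged from 14.6 to 45.6, Krt83 from 38.0 to 165 and Krt86 from 37.7 to 92.1. Krt17, a keratin of follicles and injured epidermis, had 299 in TLR3-MSC replicate 4 and at most 18.8 elsewhere, in MSC replicate 1. Its group means were 7.12 in control, 3.75 in MSC, 63.8 in TLR3-MSC and 2.81 in STING-MSC joints, and without TLR3-MSC replicate 4 it did not pass the minimum mean of 5, so its call below rests on the joint that let it be tested.

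Summed per 1000000 normalized counts, the 28 genes reached 1387 in TLR3-MSC replicate 4 and 456 in control replicate 1. They reached 99.1 in TLR3-MSC replicate 3, 99.0 in MSC replicate 1 and 43.5 in control replicate 4. The other 15 joints lay between 20.2 and 31.1, with a median of 27.3, and these 15 included all 5 STING-MSC joints (22.5 to 29.3). The group medians were 28.6 in control, 30.6 in MSC, 30.6 in TLR3-MSC and 27.3 in STING-MSC joints. The 2 leading joints had 33141873 and 33230113 reads, inside the range of the other joints, and the sums of the other 16 genes ran from 2243 to 6771 normalized counts. The highest of these sums was again TLR3-MSC replicate 4, and the next was control replicate 1 (3674). The part of keratinocyte RNA in these joints was not tested beyond the marker sums given above. These sums were highest in TLR3-MSC replicate 4 and, within control, in replicate 1, but lowest of the TLR3-MSC group in replicate 3 (1674). Ly6d made up 914 of that 1674 and was itself lowest of the group there. Col17a1 (55.0), Spink5 (30.8), Hrnr (9.38), Esrp1 (12.1), Rab25 (8.04) and Cdh1 (189) were each second highest of the group in replicate 3. Epcam, Itgb4 and Lamb3 were not. In bulk tissue, fewer cells of a type and less RNA per cell cannot be told apart.

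**Figure D2:**
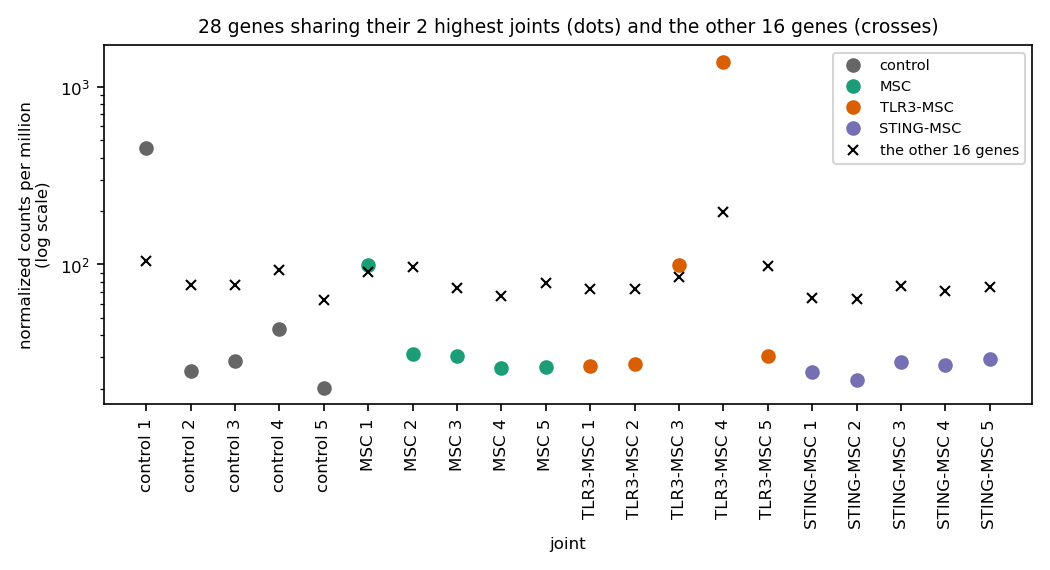
Dots give the summed counts per 1000000 normalized counts, on a log axis, of the 28 genes that share their 2 highest joints, coloured by group, and crosses the sum of the other 16 genes. TLR3-MSC replicate 4 (1387) and control replicate 1 (456) stand far above the band of 20.2 to 31.1 that holds 15 joints, and the crosses are highest in the same 2 joints.

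The 2 leading joints did not differ by a single factor. The count in control replicate 1 as a percentage of that in TLR3-MSC replicate 4 had a median of 24.8% over the 3 basal keratins (20.5 to 25.03%) and 31.0% over 4 suprabasal keratins (26.7 to 36.7%). It was 34.1% over 7 desmosome genes (25.2 to 52.0%) and 44.2% over 6 cornified envelope genes (32.99 to 58.9%). For single genes, an exact 95% interval from the reads, which covers counting error only, gave 20.5% (18.6 to 22.5) for Krt14, 24.8% (23.0 to 26.7) for Krt5 and 27.6% (26.3 to 28.9) for Krt10. It gave 34.5% (32.98 to 36.0) for Krt77 and 58.9% (55.9 to 62.0) for Lor. Krt14 and Lor are the extremes of the basal and envelope classes, and their intervals are far apart, beyond counting error. The nearest members of these classes, Krt15 (21.7 to 28.7) and Krtdap (29.0 to 37.4), nearly meet. The genes were picked on the values of these 2 joints, so the intervals are no test of a class difference. TLR3-MSC replicate 3 had 3.33% of the TLR3-MSC replicate 4 count for Krt5 and 17.7% for Lor, while MSC replicate 1 had 5.68% and 4.96%. With 1 joint at each value, this has no replicate check.

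**Figure D3:**
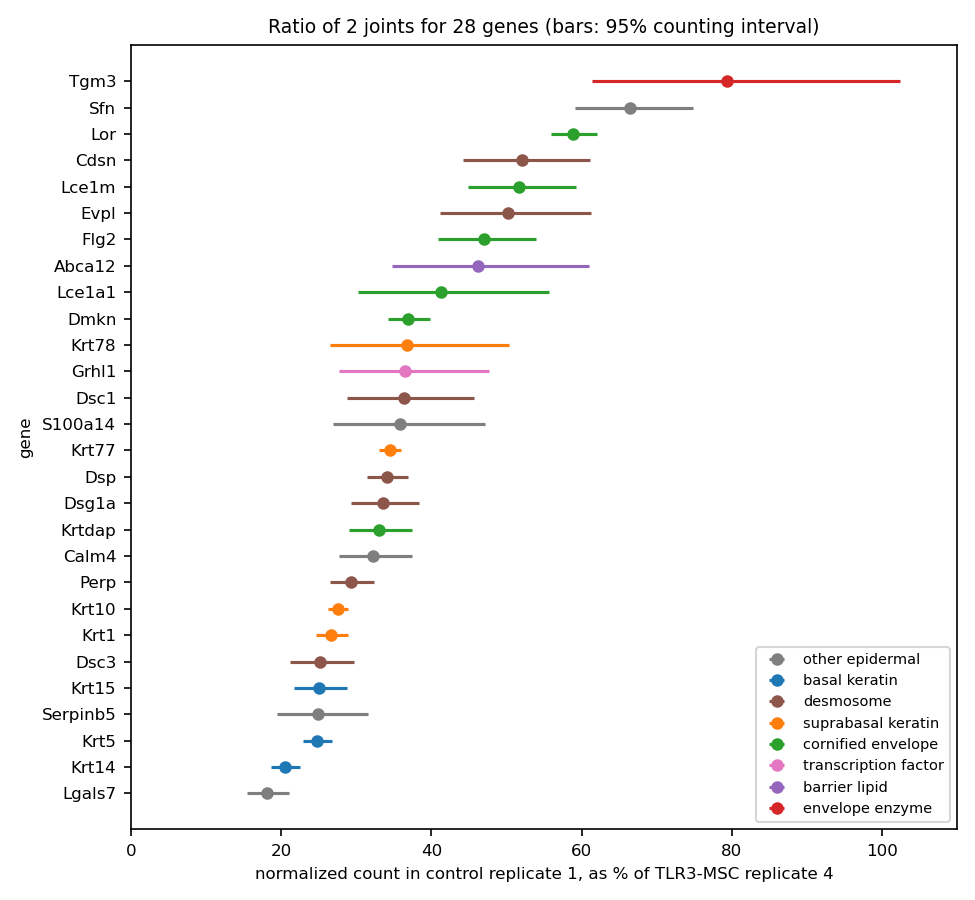
Each point is 1 of the 28 genes and gives its normalized count in control replicate 1 as a percentage of TLR3-MSC replicate 4, coloured by role, with an exact 95% counting interval. Basal keratins lie near 20.5 to 25.03% and cornified envelope genes between 32.99 and 58.9%. Sfn and Tgm3, which had reads in every joint, lie to the right.

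The first group question was whether injected cells of any kind changed these genes relative to needle insertion alone. A gene was called at an unadjusted limma p of at most 0.05 with a change of at least 2-fold, over one model of all 20 joints. In MSC against control joints 1 of the 44 genes was called, Krt75, which was lower, against 0.73% of all genes in either direction and 0.46% lower. In TLR3-MSC against control joints Krt75 was called lower and Krt79 higher, 2 of 44 against 0.331% of all genes (0.23% higher and 0.101% lower). In STING-MSC against control joints Alox12b was called higher and Lgals7 lower, 2 of 44 against 2.06% of all genes (0.277% higher and 1.78% lower). The median log2 difference of the 44 genes from control was -0.68 with MSC, 0.47 with TLR3-MSC and -0.95 with STING-MSC, while all genes had medians of -0.04, -0.01 and 0.01. These 3 comparisons share the control joints. Without control replicate 1, the called genes in TLR3-MSC against control went from 2 to 8, and without TLR3-MSC replicate 4 they went to 1. The shares of all genes in those 2 fits are not given here.

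The second question was whether activation of the cells altered the effect. In TLR3-MSC against MSC joints 3 of 44 genes were called higher (Alox12b, Krt17 and Sbsn), against 0.399% of all genes (0.324% higher), and in STING-MSC against MSC joints 1 was called higher (Alox12b), against 0.507% (0.243% higher). In STING-MSC against TLR3-MSC joints 9 of 44 were called, all lower, against 0.622% of all genes in either direction and 0.561% lower. The 9 were Krt5, Krt10, Krt77, Krt79, Lor, Flg2, Lce1a1, Lgals7 and Sbsn. Median log2 differences of the 44 genes were 1.40, -0.30 and -1.75 in these comparisons, beside 0.03, 0.02 and 0.02 for all genes, and they stayed the same with Abca12, Dsc3, Flg2, Lce1a1 and Lce1m, which were at 0 in STING-MSC joints, set at the bound of 3 reads over the group. By the F test over the 4 groups 2 of 44 were called (Krt75 and Alox12b), against 6.42% of all genes. No gene of the 44 reached a false discovery rate of 0.05 by limma in any comparison, and the smallest adjusted p was 0.303 (Krt75, MSC against control). DESeq2 put Flg2 and Lce1m at that rate in each STING-MSC comparison, where the group is at 0. By unadjusted p alone, 1 to 9 of the 44 were at or below 0.05 per comparison, against 380 to 1808 of all 14793 genes. Against control joints these counts were 4 and 1265 with MSC, 2 and 530 with TLR3-MSC, and 2 and 1808 with STING-MSC. Against MSC joints they were 4 and 574 with TLR3-MSC and 1 and 731 with STING-MSC. In STING-MSC against TLR3-MSC joints they were 9 and 380. The share of the 44 was below that of all genes only in STING-MSC against control and against MSC joints.

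Of the genes called in STING-MSC against TLR3-MSC joints, Krt5, Krt77, Flg2 and Lce1a1 were at or near 0 in STING-MSC joints, whereas Krt10 (19.2 to 119.9) and Sbsn (117 to 402) were not. For Krt77 each of the 5 STING-MSC joints lay below each of the 5 in the TLR3-MSC group, and the two-sided exact permutation test gave p = 0.00794, the smallest that 5 against 5 allows. The fitted difference was -5.61 ± 2.34 (SE), and the 5 STING-MSC joints held 2 reads in all against 8267. The ratio of the means was 3500.1-fold (exact 95% counting interval 969 to 28906) and 222-fold (61.1 to 1843) without TLR3-MSC replicate 4. Krt5 differed by -5.01 ± 1.91 (SE; exact permutation p = 0.0159), with 2 reads in the STING-MSC joints and a ratio of means of 1420.5-fold (393 to 11734), or 66.0-fold (17.8 to 551) without TLR3-MSC replicate 4. Without that joint the fitted differences were -3.88 for Krt77 and -3.41 for Krt5, and neither gene was called. The unadjusted limma p was then 0.0672 for Krt5 and higher for Krt77. For Flg2 and Lce1a1, at 0 in the STING-MSC joints, the TLR3-MSC mean was at least 209.9-fold and 53.3-fold higher than the floor of 3 reads over the group, and at least 17.7-fold and 8.46-fold higher without replicate 4. Most of what then remained in the TLR3-MSC group was in replicate 3: 419.6 for Krt77, 119 for Krt5, 44.2 for Flg2 and 18.8 for Lce1a1. The counting intervals pool the reads of a group and leave out the spread between joints. Lce1a1 had a mean of 13.4 over all joints and 162 in TLR3-MSC replicate 4, so its place in a table whose lowest mean is 9.40 rests largely on that joint. Krt10 differed by -2.39 ± 1.10 (SE; exact permutation p = 0.0397) and Lor by -3.95 ± 1.77 (SE; exact permutation p = 0.0317). Without TLR3-MSC replicate 4 the differences were -1.23 for Krt10 and -2.67 for Lor, with unadjusted limma p of 0.175 and 0.133. Lgals7 was called lower in STING-MSC joints against TLR3-MSC (-3.04, exact permutation p = 0.0238; -1.81 without TLR3-MSC replicate 4) and against control joints (-2.76, exact permutation p = 0.0556).

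These counts moved when single joints were left out. Shares of all genes in the fits with joints left out are not given here, so a general change in calls is not separated from one in these genes. In STING-MSC against TLR3-MSC joints 9 genes were called with all joints, 0 without TLR3-MSC replicate 4, 3 without TLR3-MSC replicate 3, 3 without STING-MSC replicate 5 and 18 without TLR3-MSC replicate 1. Without both TLR3-MSC replicate 4 and control replicate 1, an alternative chosen after seeing the data, 37 genes kept a mean of at least 5 and Krt5 (-3.41) and Krt77 (-3.88) were called. Without all 5 high joints 29 genes could be tested and 0 were called in this comparison. In TLR3-MSC against MSC joints the 3 calls became 0 without TLR3-MSC replicate 4 or without MSC replicate 3, 1 without TLR3-MSC replicate 3 or MSC replicate 4, 6 without TLR3-MSC replicate 1 or control replicate 1, and 8 without MSC replicate 1. On recovered reads edgeR called 29 of 44 lower in STING-MSC against TLR3-MSC joints, against 1.58% of all genes, and 22 higher in TLR3-MSC against MSC joints, against 0.514% of all genes, none at a false discovery rate of 0.05.

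**Figure D4:**
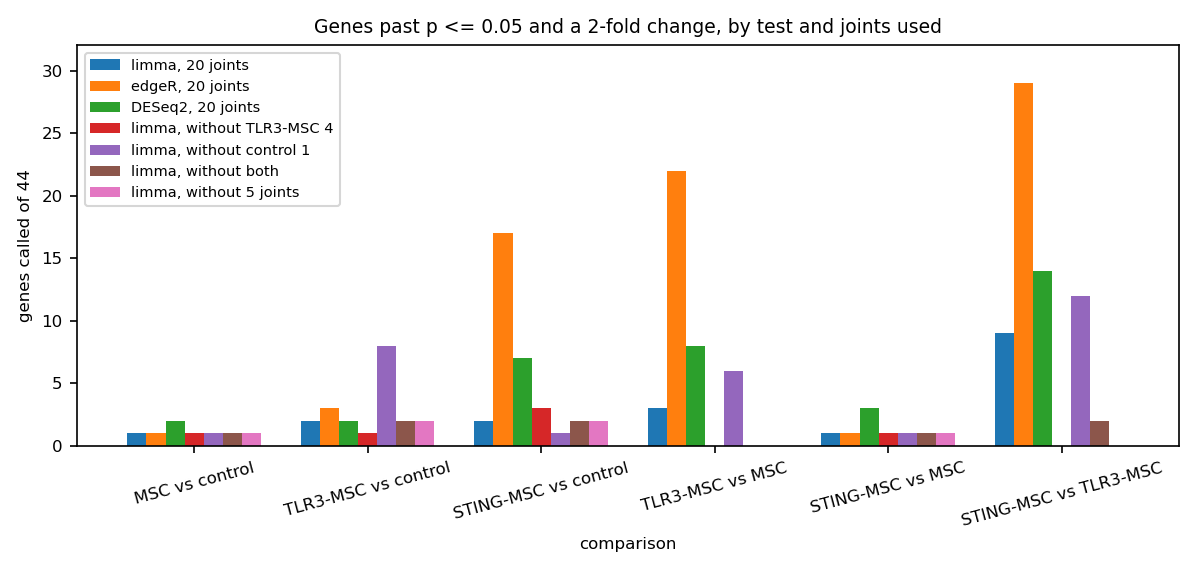
Bars give how many of the 44 genes were called in each of the 6 comparisons, by limma, edgeR and DESeq2 on 20 joints and by limma with joints left out. The count for STING-MSC against TLR3-MSC was 9 by limma, 29 by edgeR and 14 by DESeq2, where 0.622%, 1.58% and 1.57% of all genes were called, and 0 by limma without TLR3-MSC replicate 4. In the other comparisons limma on 20 joints called 1 to 3.

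Krt75 and Alox12b are outside the shared order. Krt75 in MSC against control joints was still called by limma without the 2 leading joints (-1.71). Alox12b in STING-MSC against MSC joints was too, but neither leading joint is in those groups. Its difference (2.32) could therefore not change, only its p. Krt75, a keratin of the hair follicle companion layer (chromosome 15, 101471780 to 101482340), had 20.1, 41.1, 17.6, 25.6 and 12.9 in control and 12.1, 5.89, 13.9, 1.65 and 4.07 in MSC joints. It had 12.6, 9.70, 10.7, 9.32 and 2.26 in TLR3-MSC and 14.4, 4.89, 10.4, 10.00 and 19.2 in STING-MSC joints. All 5 TLR3-MSC joints were below all 5 control joints, and 4 of 5 MSC joints were. The mean was 23.5 ± 10.9 (SD, n = 5) in control and 7.52 ± 5.26 in MSC joints, a difference of -1.68 ± 0.51 (SE; exact permutation p = 0.0159; limma adjusted p = 0.303). In TLR3-MSC joints it was 8.93 ± 3.94, a difference of -1.35 ± 0.51 (SE; exact permutation p = 0.00794; limma adjusted p = 1.00). The MSC difference passed the unadjusted threshold under each of the 29 alternatives that could be run for it, since at a mean of at least 20 Krt75 is not tested. Those that left out a TLR3-MSC or STING-MSC joint could not change this difference, only its p. The TLR3-MSC difference lost it without TLR3-MSC replicate 5 (-0.98) and without all 5 high joints (-1.51).

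Alox12b, a lipoxygenase that processes ceramides of the skin barrier (chromosome 11, 69047815 to 69060619), had 15.9, 0, 0, 14.6 and 3.40 in control and 6.03, 0.842, 0.995, 8.24 and 0 in MSC joints. It had 5.06, 7.28, 10.7, 58.0 and 5.65 in TLR3-MSC and 21.0, 12.2, 8.34, 13.7 and 17.3 in STING-MSC joints. All 5 STING-MSC joints were above all 5 MSC joints, although the gap between 8.34 and 8.24 was small. The mean was 14.5 ± 4.83 (SD, n = 5) in STING-MSC and 3.22 ± 3.68 in MSC joints, a difference of 2.32 ± 0.86 (SE; exact permutation p = 0.00794; limma adjusted p = 0.883). The difference passed the unadjusted threshold under each of 29 alternatives, of which those that left out a control or TLR3-MSC joint could change only p. Against control joints the difference was 1.86 ± 0.86 (SE; exact permutation p = 0.103), and under 10 alternatives, edgeR and DESeq2 among them, the unadjusted p was above the threshold. The control joints with most Alox12b were replicates 1 and 4, which also had Krt5 and Lor, whereas the STING-MSC joints had Alox12b with Krt5 at 0 to 2.62. For TLR3-MSC against MSC joints the difference of 1.98 had an exact permutation p of 0.0714. Without TLR3-MSC replicate 4 it was 1.40, with an unadjusted limma p of 0.114, and was no longer called. Aloxe3, its neighbour and partner enzyme, was called in no comparison.

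**Figure D5:**
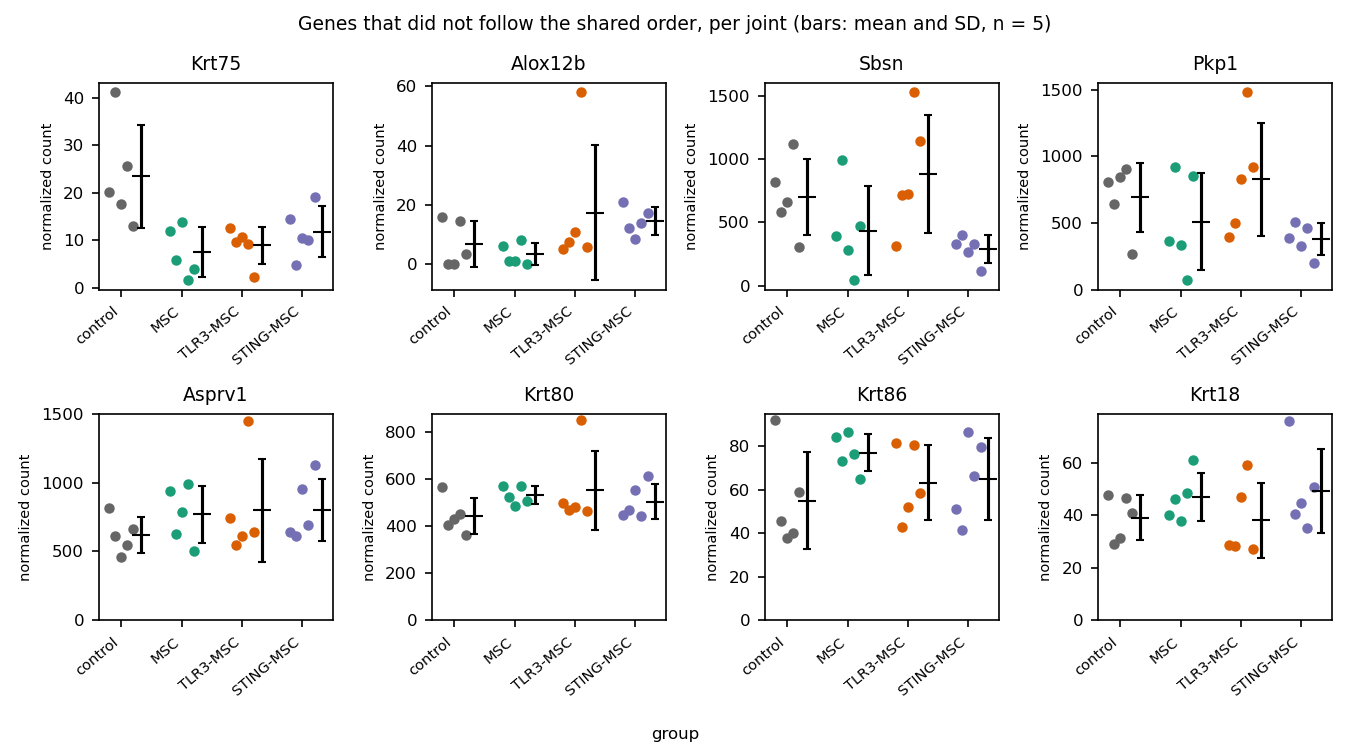
Dots are the normalized counts of single joints by group for 8 genes outside the shared order, and bars give the mean and SD of 5 joints. Control joints lie highest for Krt75 and STING-MSC joints lie above MSC joints for Alox12b. Sbsn and Pkp1 spread widely in control, MSC and TLR3-MSC and narrowly in STING-MSC joints. TLR3-MSC replicate 4 is the top dot for Krt80, Asprv1, Sbsn, Pkp1 and Alox12b.

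Sbsn and Pkp1 moved with synovial fibroblast markers. Over the 20 joints, log2 Pkp1 and the log2 sum of 8 synovial fibroblast markers had Pearson r = 0.90 and Spearman rho = 0.90 (permutation test, p = 1e-05 each, the smallest that 100000 permutations can give; adjusted p = 0.00154 and 0.00103 over 308 relations). Without the 2 joints farthest from the median marker sum r was 0.76, and with group means removed 0.87. For Sbsn r was 0.92 and rho 0.86 (permutation p = 1e-05 each; adjusted p = 0.00154 and 0.00103), with 0.79 and 0.90 under the same changes. Sbsn was called lower in STING-MSC than in TLR3-MSC joints (-1.53 ± 0.62, SE; exact permutation p = 0.0317), 2 groups whose synovial sums did not overlap, at 48409 to 207784 and 211219 to 418187. It was called higher in TLR3-MSC than in MSC joints (1.39; exact permutation p = 0.119). The part of synovial tissue in these differences was not tested.

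Asprv1 and Krt86 moved with neutrophil markers. Asprv1 and the sum of 7 neutrophil markers had r = 0.79 and rho = 0.86 (permutation p = 6e-05 and 1e-05; adjusted p = 0.00462 and 0.00103), and r was 0.79 without the 2 farthest joints and 0.82 with group means removed. For Krt86 r was 0.76 and rho 0.74 (permutation p = 0.00019 and 0.00037; adjusted p = 0.00975 and 0.0117), with 0.73 and 0.74 under the same changes. Asprv1 moved with erythroid markers as well, with r = 0.71 and rho = 0.76 (permutation p = 0.00041 and 0.00022; adjusted p = 0.0180 and 0.0101), and r was 0.71 without the 2 farthest joints and 0.75 with group means removed. Of the 308 relations, 11 had both adjusted p values at or below 0.05. The others were Krt80 and Tgm3 with neutrophil, Aloxe3 with erythroid, and Cdsn, Krt79 and Krtdap with adipocyte markers. Krt79 was called higher in TLR3-MSC than in control joints, and so were 2 of the 6 adipocyte markers, Cfd and Plin1. The adipocyte sum was 8425 to 29488 in control, 11486 to 29607 in MSC, 18932 to 36429 in TLR3-MSC and 15964 to 32655 in STING-MSC joints. Its part in the values of Krt79, Cdsn and Krtdap was not tested. The joints share depth normalization, and these relations are between RNA levels in whole tissue.

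Epidermal genes outside the inclusion rule were partly in the same joints. Of 50 further genes of stratified epithelia, 28 were in the table. TLR3-MSC replicate 4 was the highest joint for 14 of the 28, and 8 had control replicate 1 as the second highest: Pkp3, Klk7, Spink5, Elovl4, Hrnr, Col17a1, Esrp1 and Rab25. Col17a1, the hemidesmosome collagen of basal keratinocytes, had 1193 and 282 in these 2 joints, 57.6 in MSC replicate 1 and at most 55.0 elsewhere. In this list 11 of 28 genes had an SD of at least 1, and the median SD was 0.72. The SD was at least 2 times that of the mean trend for 9 of the 28. Called lower were 1 of the 28 in MSC against control (Lipn), 2 in STING-MSC against control (Lipn and Macc1) and 2 in STING-MSC against TLR3-MSC joints (Klk7 and Macc1), beside 0.46%, 1.78% and 0.561% of all genes. Follicle and sebaceous gland markers, 9 of 14 in the table, summed to 451 to 838 per joint, and 715 in TLR3-MSC replicate 4 was within the range of the other joints. Melanocyte markers, 2 of 7 in the table, summed to 18.3 to 71.2, and 52.8 in TLR3-MSC replicate 4 was within it too. Of the 9 follicle and sebaceous gland markers, S100a3 was called lower in MSC against control and Awat1 higher in STING-MSC against control joints. Msx2 and S100a3 were called higher in TLR3-MSC against MSC joints. In those comparisons and directions 0.46%, 0.277% and 0.324% of all genes were called.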

How the data were processed

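RNA of 20 knee joints, 5 per group, was sequenced in the study. The deposited values are gene counts that the authors scaled by median-ratio size factors, a normalized signal. Per the study's methods and the submitters' processing notes, reads were aligned with STAR 2.7.3a to GRCm39, counted with HTSeq and compared with DESeq2. Whole reads were recovered from each joint's smallest step, with 100% of values under 1000 whole to a tolerance of 0.1. The main test was limma 3.58.1 (R 4.3.3) with a mean trend on log2(normalized count + 1), with group as the only term, over all 14793 genes. A mean of at least 5 was required and could remove 0 genes in the full fit, since the lowest mean in the table was 9.40. Alox12b (mean 10.5), Krt78 (12.0), Krt75 (12.9), Lce1a1 (13.4) and Abca12 (14.1) are near that level. Each may thus be in the table through the groups or joints where it is high, which was not tested. False discovery rates used Benjamini-Hochberg adjustment, and single genes had two-sided exact permutation tests over 252 splits. edgeR 4.0.16 and DESeq2 1.42.0 ran on recovered reads, and all 3 tools were tested on simulated data. Other settings were another pseudocount, minimum, scaling, the 2 groups alone, a replicate block and each joint left out. The members and lists were chosen with earlier results of these data known. Members were named with values if they anchored a role, were called, or had the highest mean, largest SD or smallest SD of their role. Krt78, Dsc1 and Dmkn were named after their values were seen. Same-numbered joints are different mice, and their deviations correlated at -0.14 to 0.11 on average, so the model had no block. Promoter windows came from the GENCODE start sites on GRCm39.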

Additional observations from a re-analysis of the deposited data

Results flagged for a closer look

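Within each group of 5 joints, the highest or lowest joint was compared with its neighbour for each of the 44 genes on the log2 scale. A joint stood apart when the gap exceeded the 95% critical value of Dixon's test. For normal values chance alone exceeds it in about 1 in 20 groups, and 32 of 176 gene and group pairs did so. Many of these genes share their high joints, so the pairs are not independent. The share of all genes is not given here, so the count is not read as an excess. In 8 of the 32 the other 4 joints were at 0, so the ratio is 1 whatever the value and that rate does not apply: Abca12, Dsc1, Krt17, Krt78 and Serpinb5 in MSC, and Krt5, Dsc1 and Krt78 in STING-MSC joints. In MSC replicate 1 the high values were Abca12 7.37, Dsc1 12.1, Dsp 153.5, Flg2 32.2, Krt1 92.5, Krt17 18.8, Krt77 359, Krt78 8.04 and Serpinb5 26.1. In TLR3-MSC replicate 4 they were Dmkn 2649, Dsp 2549, Evpl 318, Grhl1 217.5, Krt17 299, Krt78 158.5, Krt80 852, Sfn 742 and Tgm3 148. In control replicate 1 they were Dsc1 110.1, Dsp 868, Grhl1 79.4, Lce1a1 66.7 and Perp 548. All 23 of these lie in TLR3-MSC replicate 4, control replicate 1 or MSC replicate 1, which are among the 5 high joints. The 23 include Krt17 and Krt80, which are outside the shared order. Krt77 and Krt5 do not appear for TLR3-MSC replicate 4, since TLR3-MSC replicate 3 was high too.

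Others rest on few reads or lie outside that order. In STING-MSC joints these were Krt5 2.62 and Krt15 28.8 high in replicate 1, Dsc1 1.25 high and Krt83 59.97 low in replicate 4, and Krt78 0.959 high and Lor 0 low in replicate 5. The high values of Krt5, Dsc1 and Krt78 are 1 or 2 reads in a group otherwise at 0. In the other groups Krt75 was low in TLR3-MSC replicate 5 (2.26), Krt222 high in MSC replicate 5 (63.1) and Pkp1 low in control replicate 5 (267).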

How the results depend on the processing

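Counts of the 44 genes called depended on the test and on single joints. Shares of all genes are set beside the edgeR and DESeq2 counts and are not given for the other settings. With edgeR on recovered reads they were 17 for STING-MSC against control, 22 for TLR3-MSC against MSC, 29 for STING-MSC against TLR3-MSC and 26 by the F test, and with DESeq2 2 for MSC against control, 7, 8, 3 for STING-MSC against MSC, 14 and 8 in the same order of comparisons. Of all genes edgeR called 2.87%, 0.514%, 1.58% and 7.35% in its 4 cases, and DESeq2 0.602%, 2.91%, 0.399%, 0.96%, 1.57% and 9.72%. With a mean of at least 20, 38 genes were tested and 0 were called for MSC against control, 1 for TLR3-MSC against control, 1 for STING-MSC against control, 1 for TLR3-MSC against MSC, 0 for STING-MSC against MSC and 0 by the F test. A pseudocount of 5 gave 0 for STING-MSC against control, quantile normalization 1 there and 1 for TLR3-MSC against MSC. Fitting only the 2 groups compared gave 1 for TLR3-MSC against control, 4 for STING-MSC against control and 1 for TLR3-MSC against MSC. Without the 2 leading joints, chosen after seeing the data, the counts were 0 for TLR3-MSC against MSC, 2 for STING-MSC against TLR3-MSC, 4 by the F test and 17 genes with an SD of at least 1, and without the 5 high joints 0, 0 and 6 genes with such an SD. The cause of these differences was not tested, except that fewer genes pass the minimum with joints left out (37 and 29).

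Leaving out 1 joint at a time gave 1 to 2 called genes for MSC against control, 1 to 8 for TLR3-MSC against control, 0 to 4 for STING-MSC against control, 0 to 8 for TLR3-MSC against MSC, 1 to 1 for STING-MSC against MSC, 0 to 18 for STING-MSC against TLR3-MSC, 1 to 4 by the F test and 24 to 28 genes with an SD of at least 1. STING-MSC against control went from 2 to 0 without STING-MSC replicate 4 and to 4 without control replicate 5, and MSC against control from 1 to 2 without MSC replicate 1, MSC replicate 2 or control replicate 5. Krt1 in STING-MSC against control went from -1.11 to 0.64 without control replicate 1 (range -1.78 to 0.64 over joints left out in turn), and to 0.64 without the 2 leading joints. Over the single-gene differences and their alternatives, 883 kept direction and side of the threshold, 109 lost it, 31 gained it and 2 turned direction. With the replicate number as a block the counts were 1, 2 and 2 against control, 2 and 1 against MSC, 10 for STING-MSC against TLR3-MSC and 2 by the F test. At counts under about 3 reads per group, as for Krt5 or Krt77 in STING-MSC joints, the fitted size depends on the pseudocount, and absence of a gene cannot be told from a level below detection.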

Other observations

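Among genes in neither epidermal list, 9 had the same 5 highest joints in the same leading order as the keratins, and they were found by searching the table after the order was known. Kprp, the keratinocyte proline-rich protein of the epidermal gene cluster on chromosome 3, had 203 in TLR3-MSC replicate 4, 125 in control replicate 1, 34.9 in TLR3-MSC replicate 3, 10.1 in MSC replicate 1, 5.48 in control replicate 4 and at most 2.62 elsewhere. Crct1, another gene of that cluster, had 198, 77.3, 12.1, 14.7 and 10.96 in these joints and at most 3.39 elsewhere. Pla2g2f, a secreted phospholipase of the suprabasal epidermis, had 296, 98.5, 13.4, 19.4 and 7.31, and at most 3.39 elsewhere. Lypd3, Psapl1, Fam25c, Ano9, Gm94 and 2310050C09Rik were the others, with 142, 287, 325, 145, 201 and 207 in TLR3-MSC replicate 4.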
